A study of Homo sapiens with 24 samples.

Results

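The 10 genes ASNS, PHGDH, PSAT1, PSPH, SHMT2, MTHFD2, ALDH1L2, PYCR1, ALDH18A1 and CTH encode enzymes that make serine, asparagine, proline and cysteine or move one-carbon units on folate. They were taken by symbol from tables that together list 23946 genes. All 10 were found in every table, and all 10 passed the filters on low values of both experiments. The genes were chosen by name with earlier results of these libraries known, so the change from vehicle to enzalutamide may have decided which genes were taken. That change is therefore given below as a description, in which genes past a threshold are counted but nothing is read from the count, both for unsilenced cells of the ligand experiment and for cells with the control siRNA.

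The libraries come from LNCaP, an androgen-dependent human prostate adenocarcinoma cell line, kept in charcoal-stripped (hormone-depleted) serum before treatment, as was every group including the controls. In the ligand experiment, cells received vehicle, 10 µM enzalutamide (MDV in the labels, an antiandrogen) or 10 nM DHT (the natural androgen dihydrotestosterone), each ligand for 4 h or 24 h, with 2 libraries in each of 5 conditions. No time is given for vehicle, which served as control at both times. In the siRNA experiment, cells were transfected with a pool against GATA2 (siGATA2) or with a non-targeting pool (siControl) and 72 h later given either vehicle or enzalutamide, now at 25 µM and for 24 h, with 3 libraries in each of 4 conditions. GATA2 is a zinc-finger transcription factor that opens chromatin in prostate cells. A single cell line and 1 siRNA pool limit these groups as models, and the experiments differ in dose, transfection and sequencer.

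Serine is built from a glycolytic intermediate by PHGDH, PSAT1 and PSPH in that order. In mitochondria SHMT2 splits serine into glycine and a one-carbon unit on folate. MTHFD2 oxidises that unit to the formyl level, and ALDH1L2 oxidises the formyl unit to carbon dioxide. ASNS makes asparagine from aspartate and glutamine, ALDH18A1 and PYCR1 perform the first and last steps from glutamate to proline, and CTH (cystathionine gamma-lyase) releases cysteine at the end of transsulfuration. Many of these genes are textbook targets of ATF4, the transcription factor of the amino acid response, which binds composite C/EBP-ATF elements such as the one in the ASNS promoter.

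In the GENCODE annotation of GRCh38, from which all gene positions here are taken, ASNS spans 97852118 to 97872542 of chromosome 7 (minus strand). PHGDH occupies 119648411 to 119744226 on chromosome 1, PSAT1 78297143 to 78330093 on chromosome 9 and PSPH 56011051 to 56051604 on chromosome 7. SHMT2 lies on chromosome 12 from 57229327 to 57234935, MTHFD2 on chromosome 2 from 74198562 to 74217565 and ALDH1L2 on chromosome 12 from 105019784 to 105084577. PYCR1 lies on chromosome 17 from 81932384 to 81942412, ALDH18A1 on chromosome 10 from 95605929 to 95656706 and CTH on chromosome 1 from 70411218 to 70439851. Among genes in the tables, MTHFD2 overlaps SLC4A5, SHMT2 overlaps NDUFA4L2 and ALDH1L2 overlaps C12orf45, each on the opposite strand, and PYCR1 overlaps MYADML2 on its own strand. The library kit marked strand, but whether the counting used it is not given in the sources used here, so reads of these 4 members may include some of their partners.

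The bases just upstream of the start are shown for ASNS, which rose most with enzalutamide in siControl cells, and for ALDH18A1, which alone was lower with enzalutamide at both times and in both experiments. RefSeq (GRCh38.p14) gives a start window, 250 bases before to 50 after the start, for 6 of the 10 genes (CTH, PHGDH, MTHFD2, ASNS, PSAT1 and ALDH18A1), and for ASNS it gives a window for each of 2 start sites. Capitals mark a match to any of 5 searched motifs, and the window sequences are written 5′ to 3′ on the strand of the gene. The first 250 bases are at chr7:97872409-97872658, minus strand, for ASNS and at chr10:95656712-95656961, minus strand, for ALDH18A1.
ASNS: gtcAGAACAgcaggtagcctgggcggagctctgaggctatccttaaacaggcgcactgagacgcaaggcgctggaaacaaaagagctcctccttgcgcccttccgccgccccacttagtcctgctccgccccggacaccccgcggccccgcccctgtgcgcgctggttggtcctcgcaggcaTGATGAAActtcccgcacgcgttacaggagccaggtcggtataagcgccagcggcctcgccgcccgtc
ALDH18A1: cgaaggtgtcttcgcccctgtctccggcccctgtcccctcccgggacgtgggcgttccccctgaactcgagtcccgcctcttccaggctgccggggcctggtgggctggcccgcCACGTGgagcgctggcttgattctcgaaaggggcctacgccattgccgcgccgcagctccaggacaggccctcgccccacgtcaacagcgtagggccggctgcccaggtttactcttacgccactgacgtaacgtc

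The ASNS window holds TGATGAAA at bases -68 to -61 from the start, which matches TGATGNAA, the core of the C/EBP-ATF element, with N for any base. Of the 6 members with a window, ASNS alone held this core, on either strand, against 3.62% of the 35116 windows in the table. The ASNS window also holds AGAACA, a half-site of steroid hormone receptors, at -247 to -242, as do 14.8% of all windows. ALDH18A1 holds CACGTG, the palindromic E-box, at -136 to -131, as do 7.26% of all windows. MTHFD2 holds TGACNNNGC, the core of the antioxidant response element, on its minus strand at 7 to 15 bases after the start, as do 13.3% of windows. The motif AGATAA, bound by GATA factors, was in none of the 6 windows and in 10.3% of all. None of the matches overlaps another. They describe letters in a short window and say nothing of binding.

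The ligand libraries held between 38894876 and 59985287 estimated counts each, and the siRNA libraries about 58200000 to 76700000 mapped reads, as read from the smallest steps of the values of 2278 weakly expressed genes. Levels are given as CPM (counts scaled to a common library size, after TMM factors) for the ligand experiment and as RPKM (reads per kilobase of gene, scaled to the mapped reads of the library) for the siRNA experiment. The 3 basal markers KRT5, KRT14 and TP63 summed to at most 0.485 CPM and 0.113 RPKM. The 3 of 4 leukocyte markers in the tables summed to 3.54 to 5.33 RPKM with siControl and 10.5 to 12.2 RPKM with siGATA2, with 1 of the 3 (CD68) above 1 RPKM and CD3E at 0. The sum of the fibroblast markers, with 1 of 4 (COL1A1) above 1 RPKM, was 9.72 to 13.1 RPKM with siControl and 12.8 to 16.3 RPKM with siGATA2. Of the 3 endothelial markers, 1 reached 1 RPKM in any siRNA library and 1 reached 1 CPM in any ligand library. Their sum was 0.954 to 0.994 RPKM in siControl vehicle, 0.371 to 0.499 RPKM with enzalutamide, 1.26 to 1.30 RPKM in siGATA2 vehicle and 0.801 to 0.865 RPKM in siGATA2 with enzalutamide. In the ligand experiment it was 15.6 to 16.4 CPM in vehicle, 8.47 to 9.05 CPM after 24 h of enzalutamide and 20.7 to 21.4 CPM after 24 h of DHT. The fibroblast sum was 24.96 to 25.2 CPM, 26.3 to 29.2 CPM and 14.9 to 16.6 CPM in that order, and the leukocyte sum 1.47 to 1.49, 1.42 to 1.61 and 2.80 to 2.87 CPM. The part of those markers in the ligand and siGATA2 results below was not tested. KLK3, the gene of PSA and 1 of 8 listed luminal prostate markers, was at 256.5 ± 4.21 CPM in vehicle, 109.9 ± 2.02 CPM after 24 h of enzalutamide and 2117 ± 31.1 CPM after 24 h of DHT (SD, n = 2 each). In vehicle it was at 791 ± 25.1 RPKM with siControl and 24.1 ± 2.29 RPKM with siGATA2 (SD, n = 3 each). KLK3 was also chosen as a check of the androgen response. The other luminal markers are not reported here, and the level of KLK3 does not describe them.

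With 10 µM enzalutamide, the enzymes of serine synthesis stood above vehicle in every library. PSAT1, the transaminase of the pathway, had 339 and 323 CPM in vehicle, 467 and 509 CPM at 4 h and 540.4 and 538 CPM at 24 h. Its log2 fold change was 0.56 (standard error 0.0405) at 4 h and 0.70 (0.0405) at 24 h. PSPH, the phosphatase that completes serine, had 56.1 and 55.0 CPM in vehicle, 82.6 and 79.6 CPM at 4 h and 75.7 and 76.4 CPM at 24 h. The treated and vehicle libraries of both genes did not overlap at either time, and PSPH was the only one of the 3 serine enzymes with a lower mean at 24 h than at 4 h. PHGDH, the dehydrogenase that commits carbon to serine, had 644 and 661 CPM in vehicle, 738 and 726 CPM at 4 h and 838 and 839.6 CPM at 24 h. Its values did not overlap between groups, and the log2 fold changes were 0.17 at 4 h and 0.36 at 24 h (standard error 0.0278 each).

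The mitochondrial one-carbon enzymes were uneven in size. MTHFD2 had 153 and 146 CPM in vehicle, 224 and 239.9 CPM at 4 h and 244 and 252 CPM at 24 h. That is a log2 fold change of 0.63 (standard error 0.0428) at 4 h and 0.73 (0.0427) at 24 h, so most of the 24 h difference was present at 4 h. SHMT2 had 388 and 394 CPM in vehicle, 445 and 435 CPM at 4 h and 552 and 557 CPM at 24 h, with log2 fold changes of 0.17 (standard error 0.0294) and 0.50 (0.0294). Neither gene's treated libraries overlapped vehicle. ALDH1L2, the mitochondrial formyl-tetrahydrofolate dehydrogenase, rested on 22 to 75 estimated counts per library, and only 15.7% of the tested genes had a level at or below its own. It had 1.12 and 0.939 CPM in vehicle, 1.18 and 1.34 CPM at 4 h and 1.104 and 1.51 CPM at 24 h, so that the groups overlapped at 24 h.

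ASNS had 256 and 237 CPM in vehicle, 322 and 342 CPM at 4 h and 443 and 454 CPM at 24 h. Relative to vehicle this is 0.43 on the log2 scale (standard error 0.0476) at 4 h and 0.86 (0.0476) at 24 h. CTH, at a far lower level, had 15.8 and 14.8 CPM in vehicle, 25.6 and 27.1 CPM at 4 h and 28.4 and 27.95 CPM at 24 h, with log2 fold changes of 0.78 (standard error 0.0596) and 0.88 (0.0589). ASNS and CTH each separated treated from vehicle libraries at both times. The proline enzymes differed less from vehicle, and in opposite directions: PYCR1 had 220.9 and 224.0 CPM in vehicle, 236.0 and 224.2 CPM at 4 h and 257.5 and 255.5 CPM at 24 h, and ALDH18A1 had 180.3 and 177 CPM in vehicle, 168 and 169.5 CPM at 4 h and 167 and 163 CPM at 24 h. Treated and vehicle libraries of both genes did not overlap at either time, although PYCR1 came close at 4 h. ALDH18A1 differed from vehicle by -0.08 on the log2 scale (standard error 0.0328) at 4 h and -0.11 (0.0327) at 24 h.

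A gene was called when its Benjamini-Hochberg adjusted p over all genes of a comparison was below 0.05. With enzalutamide at 4 h, 7 of the 10 members were called higher and 0 lower, beside 6.94% and 6.68% of the 15555 genes tested. At 24 h, 8 were called higher and 1 (ALDH18A1) lower, beside 16.4% and 17.0% of all genes. The median log2 fold change of the members was 0.35 at 4 h and 0.48 at 24 h, where that of all genes was 0.00149 and 0.0148. Since these comparisons may have chosen the genes, nothing is read from the counts. The ALDH18A1 call at 24 h was absent without vehicle replicate 1 or without enzalutamide 24 h replicate 2.

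**Figure D1:**
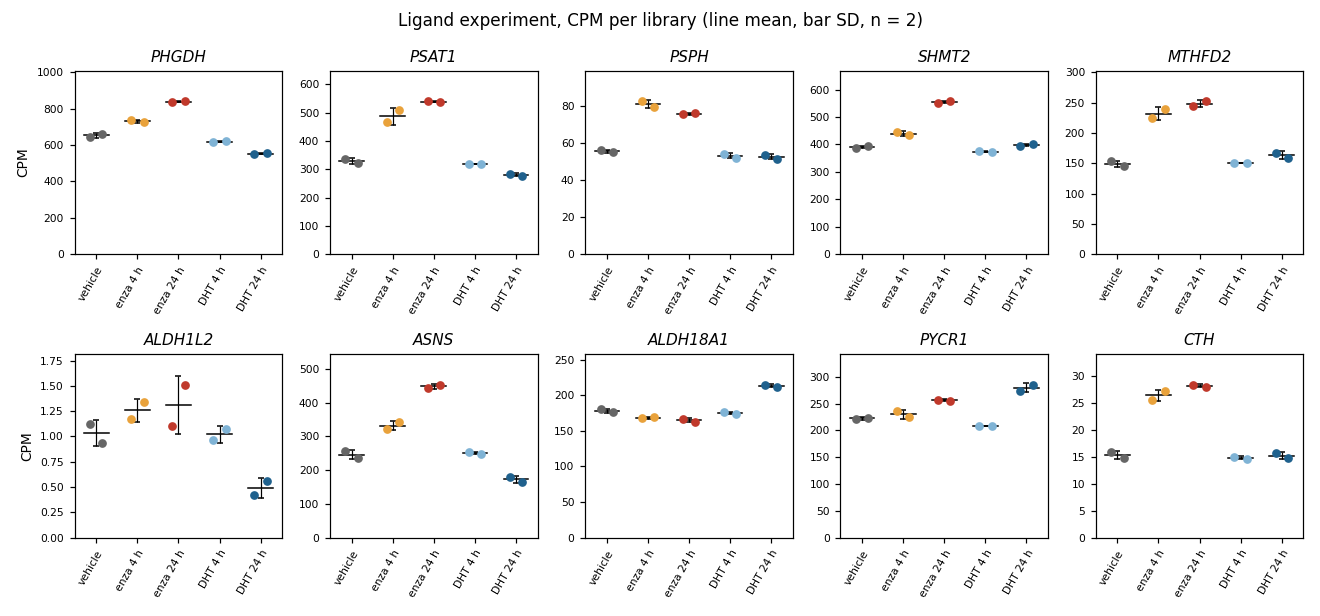
CPM (vertical axes, from 0) of the 10 genes in each of the 10 libraries of the ligand experiment, with the mean (line) and SD (bar) of the 2 libraries of a condition. ASNS runs from 246 CPM in vehicle to 448 CPM after 24 h of enzalutamide and 173 CPM after 24 h of DHT, while ALDH18A1 is lowest after enzalutamide and highest after 24 h of DHT.

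Between 4 h and 24 h of enzalutamide, 5 members rose further, beside 11.7% of all genes called higher, and 0 fell, beside 12.9% called lower (edgeR quasi-likelihood). ASNS rose by 0.43 on the log2 scale (standard error 0.0472, adjusted p = 1.96e-05) and SHMT2 by 0.33 (0.0293, adjusted p = 2.18e-06). PHGDH rose by 0.20 (adjusted p = 2e-04), PYCR1 by 0.16 (adjusted p = 0.00595) and PSAT1 by 0.14 (adjusted p = 0.0197). The difference was 0.10 for MTHFD2 (adjusted p = 0.112), 0.09 for CTH (0.248) and -0.09 for PSPH (0.123), all edgeR and none past the threshold. The libraries compared here are those of the previous comparisons, which may have chosen the genes, so these p-values are given as a description. Both libraries of a time share a prefix in their column headers (ZC2 at 4 h, ZC3 at 24 h) whose meaning is not given in the sources used here. Time and prefix therefore cannot be told apart directly. Each prefix also has a column of vehicle replicate 1, and against the vehicle of its own prefix the difference was past the threshold for ASNS (0.38, adjusted p = 0.0183), SHMT2 (0.32, 0.00191) and PHGDH (0.23, 0.013) but not for PSAT1 (0.15, 0.271) or PYCR1 (0.14, 0.277; edgeR). Without enzalutamide 24 h replicate 1, 3 members were called, PYCR1 (adjusted p = 0.0649) and PSAT1 (0.131) being lost. PSAT1 was also lost without enzalutamide 24 h replicate 2 (0.107) or enzalutamide 4 h replicate 1 (0.124), and MTHFD2 was called without enzalutamide 4 h replicate 2 (0.0337; edgeR).

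The androgen DHT left all 10 genes near vehicle at 4 h. Their log2 fold changes ran from -0.09 (PYCR1) to 0.03 (ASNS), 0 were called in either direction by edgeR, and of all genes 4.66% were called higher and 2.11% lower. At an unadjusted p, PHGDH, PYCR1 and SHMT2 were below 0.05, all of them with lower means than vehicle. DESeq2 also called 0 members. Vehicle libraries enter this comparison as they entered those of enzalutamide.

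At 24 h, DHT raised some members and lowered others. Of the 10 genes 3 rose, beside 26.9% of all genes, and 4 fell, beside 23.1%. With so few members and so many genes called, nothing about the group is read from these counts. ASNS, with 181 and 166 CPM against 256 and 237 CPM in vehicle, fell by 0.51 on the log2 scale (standard error 0.0483, adjusted p = 1.68e-06, edgeR). PHGDH, with 550.0 and 556 CPM, fell by 0.24 (adjusted p = 1.15e-05, edgeR), and PSAT1, with 285 and 278 CPM, fell by 0.23 (adjusted p = 0.000361, edgeR). Neither DHT library of these 3 genes reached the lower vehicle library. ALDH1L2 showed the largest fall among the members, with 0.421 and 0.561 CPM against 1.12 and 0.939 CPM, by 1.11 on the log2 scale (standard error 0.258, adjusted p = 0.00292, edgeR), on 23 and 22 estimated counts in the DHT libraries.

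The proline enzymes went the other way. PYCR1 reached 274 and 285 CPM after 24 h of DHT against 221 and 224 CPM in vehicle, a rise of 0.33 on the log2 scale (standard error 0.0354, adjusted p = 4.92e-06, edgeR). ALDH18A1 reached 215 and 212 CPM against 180.3 and 177 CPM, a rise of 0.26 (0.0326, adjusted p = 2.11e-05, edgeR). Both DHT libraries of either gene stood above both vehicle libraries. MTHFD2 rose by 0.13 (adjusted p = 0.0219, edgeR), but not past the threshold without vehicle replicate 2 (adjusted p = 0.149), without DHT 24 h replicate 1 (0.187), against vehicle of the same header prefix (0.101) or by library size alone (0.151). SHMT2 differed from vehicle by 0.02 (adjusted p = 0.528), PSPH by -0.08 (0.162) and CTH by -0.01 (0.91; edgeR), none past the threshold. PSPH was called lower in 2 of 22 alternatives, with library size only (adjusted p = 0.0188) and with 4 vehicle columns as separate samples (0.0448; edgeR).

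**Figure D2:**
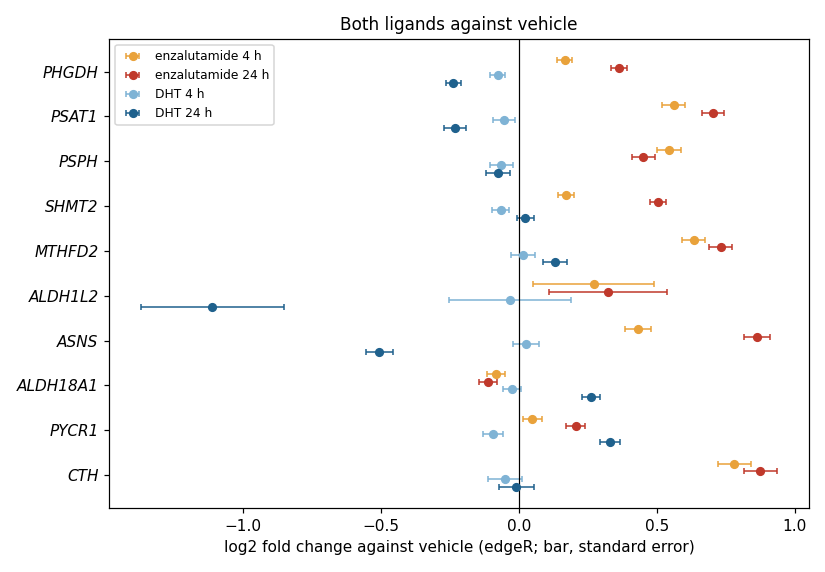
Log2 fold change against vehicle (horizontal axis) with its standard error for the 10 genes (rows) under each ligand and time. The values of enzalutamide lie to the right of 0 in 9 rows, those of DHT at 4 h lie within 0.1 of 0, and those of DHT at 24 h range from -1.11 for ALDH1L2 to 0.33 for PYCR1.

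Set directly against each other at 4 h, enzalutamide libraries were called higher than DHT libraries in 8 members and lower in 0, beside 7.28% and 8.49% of all genes. At 24 h they were higher in 8 and lower in 2 (ALDH18A1 and PYCR1), beside 33.6% and 31.3%. These comparisons reuse the treated libraries and are given as descriptions. At 4 h both enzalutamide libraries carry the prefix ZC2 and both DHT libraries ZC1, so ligand and prefix cannot be told apart directly, and against vehicle of the same prefix 7 members were called higher. PYCR1, among the 8 at 4 h, was called in 16 of 21 alternatives. The widest separations at 24 h were those of ALDH1L2, with a log2 difference of 1.44 (standard error 0.249), and ASNS, with 1.37 (0.0484). For PYCR1 both ligands were above vehicle at 24 h and DHT was the higher, with 279.8 ± 7.86 CPM against 256.5 ± 1.39 CPM (SD, n = 2).

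RPKM allow levels to be set beside each other between genes. In siControl cells with vehicle, PHGDH was highest, at 313 ± 12 RPKM (SD, n = 3 for all values of this experiment), followed by PYCR1 (125 ± 6.80) and SHMT2 (119.5 ± 5.62), whose libraries overlapped. PSAT1 followed at 97.0 ± 2.71 RPKM. ALDH18A1 (62.3 ± 1.16), MTHFD2 (60.8 ± 1.69) and ASNS (58.1 ± 1.59) each overlapped the next in order, and PSPH (18.5 ± 0.578), CTH (6.63 ± 0.212) and ALDH1L2 (3.39 ± 0.262) stood apart below them. The members together summed to 865 ± 20.8 RPKM in these cells.

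With 25 µM enzalutamide for 24 h, 9 of the 10 genes stood above vehicle in all siControl libraries. ASNS had 57.1, 59.9 and 57.2 RPKM in vehicle and 158, 157 and 172 RPKM with enzalutamide, a log2 fold change of 1.48 (standard error 0.0361) on the log2(RPKM + 0.1) scale used for this experiment. CTH had 6.85, 6.61 and 6.43 RPKM in vehicle and 15.00, 16.3 and 17.4 RPKM with enzalutamide, a log2 fold change of 1.28 (0.0706). ALDH1L2, which these libraries measured at higher precision than the ligand libraries, had 3.39, 3.65 and 3.12 RPKM in vehicle and 6.91, 7.36 and 7.80 RPKM with enzalutamide, a log2 fold change of 1.098 (0.0758). PSAT1 went from a mean of 97.0 to 203 RPKM, and these 4 were the members more than 2-fold above vehicle.

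The smaller differences were those of MTHFD2 (log2 fold change 0.85), SHMT2 (0.65), PHGDH (0.55), PSPH (0.35) and PYCR1 (0.30). ALDH18A1 had 63.6, 61.4 and 61.8 RPKM in vehicle and 55.2, 52.1 and 51.3 RPKM with enzalutamide, a log2 fold change of -0.24 (standard error 0.0283), the only member lower than vehicle. By limma 9 members were called higher, beside 17.7% of the 20369 genes tested, and 1 lower, beside 24.4%. As in the ligand experiment, this contrast may have chosen the genes and is given as a description. The summed level of the members reached 1376 ± 9.29 RPKM.

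**Figure D3:**
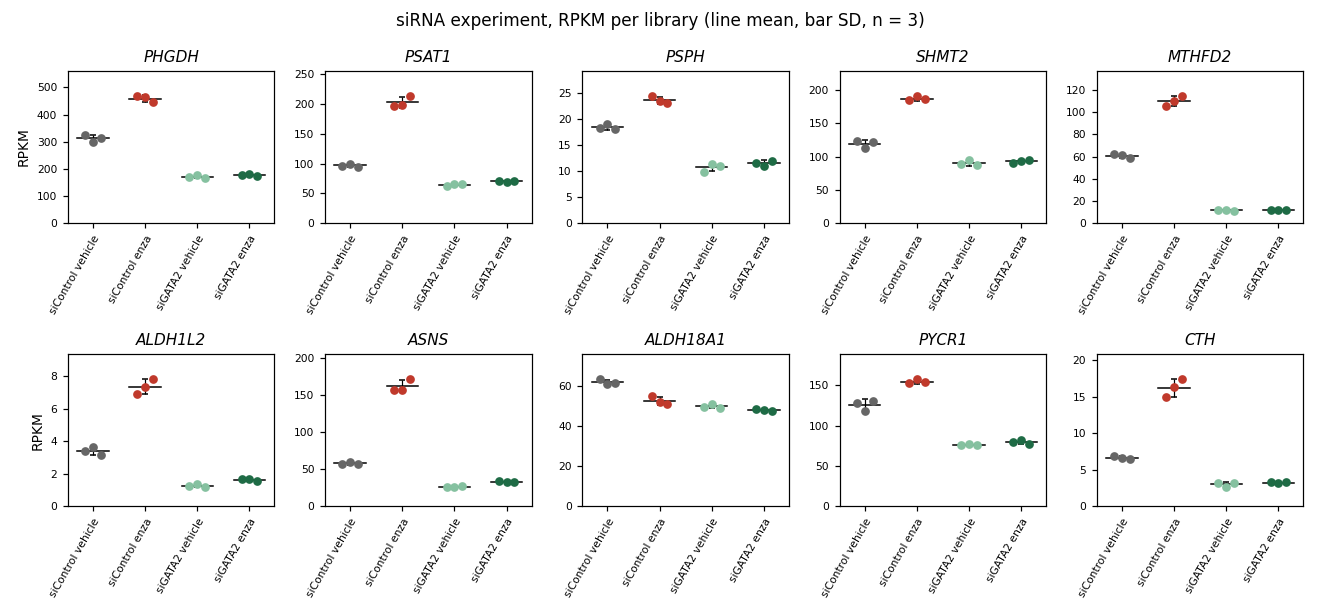
RPKM (vertical axes, from 0) of the 10 genes in each of the 12 libraries of the siRNA experiment, with the mean (line) and SD (bar) of the 3 libraries of a condition. In 9 panels siControl with enzalutamide is highest and both siGATA2 conditions are lowest. ALDH18A1 is highest in siControl with vehicle, at 62.3 RPKM.

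The targeted gene checks the labels of the silenced cells. GATA2 was at 82.3 ± 4.72 RPKM with siControl and 51.4 ± 4.22 RPKM with siGATA2 in vehicle, a log2 fold change of -0.68 (standard error 0.0594, adjusted p = 3.12e-06, limma). With enzalutamide it was at 129 ± 1.97 RPKM and 62.1 ± 2.37 RPKM. In the ligand experiment GATA2 was instead lower with enzalutamide than in vehicle (229.9 CPM). It was at 175.3 CPM at 4 h (log2 fold change -0.39, adjusted p = 0.000198, edgeR). At 24 h it was at 202.1 CPM (log2 fold change -0.19, adjusted p = 0.00892, edgeR).

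In vehicle, all 10 members were lower with siGATA2 than with siControl, with no overlap of libraries for any of them. All 10 fell by limma's test, beside 31.4% of all genes called lower, and 0 rose, beside 24.2% called higher. The median log2 fold change was -0.83 for the members and -0.027 for all genes. The siControl vehicle libraries of this comparison are also the controls of the enzalutamide comparison above. The genes were chosen with earlier results of these libraries known, so the count may not be independent of that choice. It is given as a description.

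MTHFD2 fell the furthest. It had 62.3, 61.1 and 58.9 RPKM with siControl and 11.4, 11.7 and 11.3 RPKM with siGATA2, a log2 fold change of -2.40 (standard error 0.0312, adjusted p = 9.21e-12, limma). Of the siControl level 18.8% was left. The fall took MTHFD2 from the level of ASNS and ALDH18A1 to that of PSPH, whose libraries it overlapped in siGATA2 cells. Its partners in mitochondria differed in size: ALDH1L2 went from 3.39 ± 0.262 to 1.26 ± 0.0975 RPKM, a log2 fold change of -1.36 (adjusted p = 1.01e-07), and SHMT2 from 119.5 ± 5.62 to 90.4 ± 4.06 RPKM, a log2 fold change of -0.40 (adjusted p = 8.67e-06; limma).

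ASNS had 25.6, 26.2 and 26.99 RPKM with siGATA2, a log2 fold change of -1.14 (standard error 0.0361, adjusted p = 1.88e-09, limma), and CTH had 3.15, 2.70 and 3.25 RPKM, a log2 fold change of -1.11 (0.0706, adjusted p = 2.74e-07). Among the serine enzymes the falls were -0.87 for PHGDH, -0.78 for PSPH and -0.59 for PSAT1 (adjusted p = 1.75e-08, 3.78e-07 and 2.16e-07, limma). PHGDH kept 54.6% of its siControl level and PSAT1 66.6%. Of the proline enzymes, PYCR1 fell by 0.72 on the log2 scale (adjusted p = 7.21e-08, limma) and ALDH18A1, with 49.9, 51.1 and 49.3 RPKM, fell by 0.31 (adjusted p = 4.02e-06, limma), the smallest change of the 10.

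In siGATA2 cells enzalutamide moved the members little, and few of all genes were called. The libraries are shared with no enzalutamide comparison above, but the vehicle ones also entered the siGATA2 comparison. All 12 siRNA libraries share 1 limma fit. ASNS had 25.6, 26.2 and 26.99 RPKM in vehicle and 33.6, 32.7 and 33.2 RPKM with enzalutamide and rose by 0.34 on the log2 scale (standard error 0.0361, adjusted p = 0.0037, limma), with no overlap. It was the only member called, 1 of 10 beside 0.221% of all genes called higher, while 0 members were lower, beside 0.191%. ALDH1L2, with 1.25, 1.36 and 1.17 RPKM in vehicle and 1.67, 1.69 and 1.52 RPKM with enzalutamide, had a log2 fold change of 0.35 (0.0758, adjusted p = 0.104, limma). Its libraries did not overlap, and it passed the threshold when only genes with at least 0.5 RPKM in 3 libraries were tested (adjusted p = 0.0487). PSAT1 differed by 0.12 (standard error 0.0363, adjusted p = 0.257) and MTHFD2 by 0.04 (0.0312, adjusted p = 0.709), and the remaining members lay between -0.05 (ALDH18A1) and 0.10 (PSPH).

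The size of the response was compared between both siRNA pools as an interaction, the enzalutamide effect in siGATA2 cells minus that in siControl cells. It was below 0 for 9 members and above 0 for ALDH18A1, and all 10 passed limma's test, beside 10.8% of all genes called below 0 and 15.0% above. Since it contains the siControl effect that may have chosen the genes, it is not independent of that choice. CTH differed by -1.18 (standard error 0.0999, adjusted p = 2.49e-05), ASNS by -1.14 (0.051, adjusted p = 8.74e-07) and PSAT1 by -0.94 (0.0513, adjusted p = 1.65e-06). The value of MTHFD2 was -0.81 (adjusted p = 1.65e-06), that of ALDH1L2 -0.75 (0.000678), of SHMT2 -0.61 (4.78e-05) and of PHGDH -0.50 (0.000129; limma). PSPH (-0.25, adjusted p = 0.0299) and PYCR1 (-0.23, adjusted p = 0.0099) had the smallest of the 9. The PSPH call was lost without any 1 of 8 of the 12 libraries, with adjusted p-values between 0.0525 and 0.0699, and with the replicate block, at 0.0574 (limma). For ALDH18A1 the value was 0.18 (standard error 0.04, adjusted p = 0.00771): its level went down by 9.42 RPKM in siControl cells and by 1.87 RPKM in siGATA2 cells. On the linear scale the mean of ASNS went up by 104 RPKM in siControl cells and by 6.91 RPKM in siGATA2 cells, and that of MTHFD2 by 49.2 and 0.328 RPKM.

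**Figure D4:**
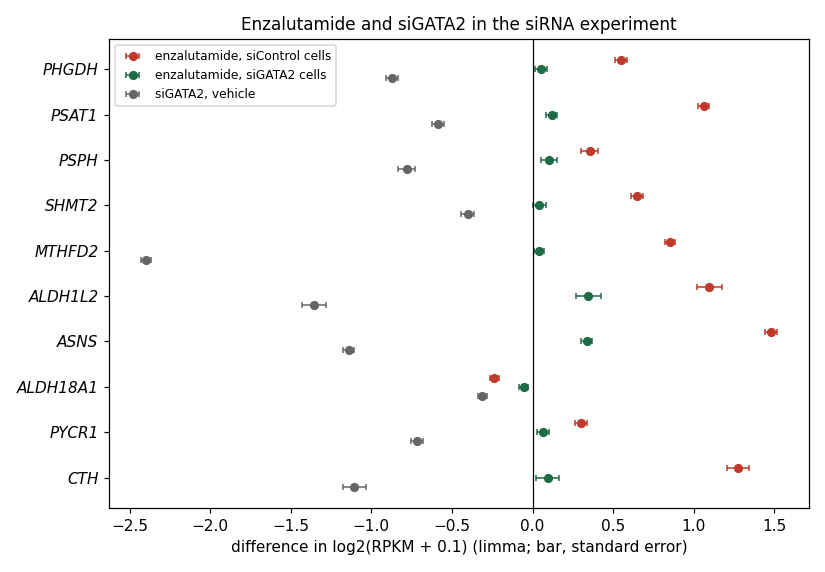
Difference in log2(RPKM + 0.1) with its standard error (horizontal axis) for the 10 genes (rows): enzalutamide against vehicle in siControl and in siGATA2 cells, and siGATA2 against siControl in vehicle. In 9 rows the siControl response lies right of 0 and the siGATA2 response between 0.04 and 0.35, and in all 10 rows siGATA2 in vehicle lies left of 0, down to -2.40 for MTHFD2.

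Under enzalutamide the siGATA2 level was therefore further below siControl than in vehicle for those 9 members. All 10 were called lower, beside 28.1% of all genes, and 0 higher, beside 26.3%, as a description that reuses the siControl libraries with enzalutamide. MTHFD2 had 10.7% of its siControl level left, CTH 20.0%, ASNS 20.4% and ALDH1L2 22.1%. PYCR1 had 51.7% and ALDH18A1 91.3%. The members together summed to 529.8 ± 4.84 RPKM in siGATA2 cells with enzalutamide and 505 ± 12.1 RPKM in siGATA2 cells with vehicle.

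ATF4 was followed as the gene of the factor known for this group. It was at 407 ± 4.38 CPM in vehicle, 596 ± 16.6 CPM after 4 h and 688 ± 9.16 CPM after 24 h of enzalutamide, and at 368 ± 3.02 CPM after 24 h of DHT (log2 fold change -0.15, adjusted p = 0.00137, edgeR). In the siRNA experiment it was at 124 ± 1.48 RPKM in siControl vehicle, 286 ± 10.5 RPKM with enzalutamide, 91.7 ± 2.84 RPKM in siGATA2 vehicle and 101 ± 2.86 RPKM in siGATA2 with enzalutamide. It fell with siGATA2 in vehicle by 0.44 (adjusted p = 1.32e-06, limma), and its interaction was -1.06 (adjusted p = 9.76e-07). In siGATA2 cells the enzalutamide difference was 0.15 (adjusted p = 0.137, limma). Whether ATF4 had a part in the changes of the members was not tested.

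Copies that hold a member's symbol were listed apart from it, and their reads are uncertain. ASNSP1, a pseudogene of ASNS, had 2.58 ± 0.0552 CPM in vehicle and 6.09 ± 0.375 CPM after 24 h of enzalutamide. The read-through or fusion entry CZ1P-ASNS reached at most 3.44 CPM as a group mean and MTHFD2P1, a pseudogene of MTHFD2, at most 1.79 CPM. MTHFD2P1 was below 0.05 RPKM in the mean of each siRNA condition.

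Other enzymes of the same pathways were followed in 5 lists of 67 genes in all, which hold none of the 10 members and of which 59 passed the filter in the ligand experiment and 62 in the siRNA experiment. With enzalutamide for 24 h, 13 of the 59 rose and 12 fell by edgeR, beside 16.4% and 17.0% of all genes, and their median log2 fold change was 0.003. In siControl cells 21 of the 62 rose and 22 fell by limma, beside 17.7% and 24.4% of all genes, with a median of -0.003. In the folate list, 4 of 19 rose and 13 fell in siControl cells: MTHFD1L, the mitochondrial synthetase that follows MTHFD2, rose by 0.90 (standard error 0.0539, adjusted p = 6.04e-07), while TYMS, thymidylate synthase, fell by 1.61 (0.0415, adjusted p = 5.71e-09; limma). GGH, a folate hydrolase of the lysosome, fell by 1.07 (adjusted p = 8.38e-08), and the cytosolic ALDH1L1 rose by 0.70 (adjusted p = 0.000629; limma). Of the other lists tested in siControl cells, 8 of 11 genes of the methionine cycle and transsulfuration rose and 2 fell, 5 of 13 of the asparagine, aspartate and glutamate genes rose and 3 fell, 3 of 8 proline genes rose and 1 fell, and 2 of 12 serine and glycine genes rose and 3 fell.

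In the ligand experiment TYMS went from 123 ± 1.54 CPM in vehicle to 45.7 ± 0.909 CPM after 24 h of enzalutamide and 198 ± 2.52 CPM after 24 h of DHT (SD, n = 2). MTHFD1L went from 25.3 ± 2.01 to 35.7 ± 0.512 CPM with enzalutamide for 24 h (log2 fold change 0.50, adjusted p = 5.81e-05), and GPT2, the mitochondrial alanine transaminase, rose by 0.43 at 4 h (adjusted p = 3.29e-06) and 0.49 at 24 h (adjusted p = 8.57e-08; edgeR). AMT, an enzyme of glycine cleavage, rose by 0.87 at 24 h (adjusted p = 0.00176, edgeR) from 1.39 ± 0.294 CPM. At 4 h, 3 of the 59 rose and 4 fell, beside 6.94% and 6.68% of all genes, among them MAT2A, which makes S-adenosylmethionine (by 0.50, adjusted p = 0.000102), and the folate carrier SLC19A1 (by 0.49, adjusted p = 5.32e-05; edgeR). With DHT for 24 h, 32 of the 59 rose and 13 fell, beside 26.9% and 23.1% of all genes, led by GNMT, glycine N-methyltransferase, which rose by 1.92 (adjusted p = 3.56e-08), and ASRGL1, an asparaginase, which rose by 1.32 (adjusted p = 4.5e-08; edgeR).

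With siGATA2 in vehicle, 11 of the 62 rose and 40 fell by limma, beside 24.2% and 31.4% of all genes, with a median log2 fold change of -0.29. In the folate list 2 of 19 rose and 17 fell. The counts were 2 and 8 of 11 for the methionine cycle and transsulfuration, 3 and 8 of 13 for asparagine, aspartate and glutamate, 2 and 5 of 12 for serine and glycine (median -0.069) and 2 and 3 of 8 for proline (median 0.059). MAT1A fell by 1.93, ALDH1L1 by 1.79 and GGH by 1.36 (adjusted p = 7.21e-08, 2.83e-07 and 3.96e-09, limma), and GPT, the cytosolic alanine transaminase, rose by 1.34 (adjusted p = 4.12e-07). The interaction passed the test above 0 for 18 of the 62, beside 15.0% of all genes, led by TYMS (1.39, adjusted p = 8.14e-07), and below 0 for 16, beside 10.8%, led by MTHFD1L (-0.96, adjusted p = 1.77e-05, limma). MTHFD1L was at 2.85 ± 0.132 and 5.42 ± 0.314 RPKM in siControl and at 1.29 ± 0.0363 and 1.24 ± 0.0146 RPKM in siGATA2 cells, with vehicle and enzalutamide in that order.

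The members were also placed by the distance of each gene's log2 fold changes from the median of the 10, over 7 comparisons (each ligand and time against vehicle, enzalutamide in each siRNA pool, and siGATA2 in vehicle). Among the genes above a mean log2 CPM of 1 and a mean of 1 RPKM, the 5 nearest genes outside the group were GAS5 (distance 0.297), RHBDD1 (0.298), TCP11L1 (0.336), LOC101927765 (0.341) and LOC100505938 (0.378). PHGDH (0.360), PSPH (0.447), SHMT2 (0.481) and PSAT1 (0.536) were the nearest members, while ALDH18A1 (1.38) and MTHFD2 (1.63) were the farthest. Of the 11359 genes ranked, ALDH18A1 was at rank 5266 and MTHFD2 at rank 8794. The median comes from the members themselves and includes comparisons that may have chosen them, so the distances are descriptions. The members thus varied among themselves more than their median conveys. ALDH1L2 was below the limit on level and was not ranked.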

How the data were processed

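RNA-seq of LNCaP cells in 5 ligand conditions and 4 siRNA conditions was analysed. Per the submitters' processing notes, reads were aligned to hg19 with TopHat2 2.0 and quantified in Partek. The authors deposited estimated counts per gene for the ligand experiment, without normalization, and RPKM values for the siRNA experiment, whose files are named as counts although their values are not whole. The design had foreseen either unit. The tables hold no coordinates, so gene positions come from GENCODE (GRCh38) and start windows from RefSeq. The vehicle table has 4 columns, of which 3 carry replicate number 1. Between pairs of these 3 the chi-square averaged 1.51 to 1.54 over genes, against 3.42 to 3.59 with the column of replicate 2, so they were summed and counted as 1 sample, although the labels call all 4 biological replicates. Genes missing from one table were set to 0 there. Unused value columns numbered 0.

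Counts were rounded and tested with edgeR 4.0.16 (quasi-likelihood, TMM, default filter) in 1 fit of 10 libraries. For the RPKM, genes listed above 0 in 3 or more of the 12 libraries entered 1 limma 3.58.1 fit of log2(RPKM + 0.1), whose prior variance followed the mean level; fold changes on this scale understate those of low genes. P-values were adjusted by Benjamini-Hochberg over all genes of a comparison. Both steps were tested on simulated data. The members, lists and tests were chosen with earlier results of these data known. The text names all members, GATA2, KLK3, ATF4, copies holding a member's symbol, the called list genes with the largest changes (at most 3 in each direction a comparison) and the 5 nearest genes; FKBP5 and TMPRSS2 were computed only. Some genes that this rule or the marker lists name are not reported here. COL1A1, CD68 and CD3E were named after their values were seen. DESeq2 1.42.0, other scalings, filters, pseudocounts, vehicle columns, a replicate block and leaving out each library were alternatives. Same-numbered libraries deviated together with correlations of -0.205 to 0.182 (ligand) and -0.439 to 0.386 (siRNA). With 2 libraries a condition, both replicate numbers of the ligand experiment give the same correlation by construction, so it counts once. It lay above 0.1 for vehicle with DHT 24 h (0.182), DHT 24 h with DHT 4 h (0.13) and enzalutamide 24 h with 4 h (0.129). No siRNA groups had all their same-numbered pairs above 0.1. The main fits used no block, and whether the numbers pair the libraries was not settled. Figures were drawn with matplotlib 3.10.9.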

Additional observations from a re-analysis of the deposited data

Results flagged for a closer look

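The effect of enzalutamide differed between siGATA2 and siControl cells for all 10 members by limma's interaction test (n = 3 per condition), on the log2(RPKM + 0.1) scale. The difference was -1.18 for CTH, -1.14 for ASNS, -0.94 for PSAT1, -0.81 for MTHFD2, -0.75 for ALDH1L2, -0.61 for SHMT2, -0.50 for PHGDH, -0.25 for PSPH and -0.23 for PYCR1, and it was 0.18 for ALDH18A1. The interaction contains the siControl effect that may have chosen the genes, so it is not independent evidence, and the PSPH call was held in 11 of 20 alternatives (adjusted p up to 0.0699, limma). The effect of enzalutamide also differed between 24 h and 4 h by edgeR (n = 2 per condition) for ASNS (0.43), SHMT2 (0.33), PHGDH (0.20), PYCR1 (0.16) and PSAT1 (0.14), as log2 differences. Both times use libraries that the choice of genes may have used, and time cannot be told apart directly from the prefix of the column headers (ZC2 at 4 h, ZC3 at 24 h). Against vehicle of the same prefix, PYCR1 (adjusted p = 0.277) and PSAT1 (0.271; edgeR) were not called, and both were also lost without enzalutamide 24 h replicate 1 (0.0649 and 0.131). With 2 or 3 libraries a condition, no library was tested for standing apart from its group.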

How the results depend on the processing

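No called value changed sign under any alternative that was run. Of the values of the members under the alternatives, 2505 kept their side of the threshold, 30 dropped below it and 5 passed it. A further 10 stayed uncalled but moved by more than their standard error. Uncalled values that changed sign within their standard error count among the 2505. ALDH1L2 with DHT at 4 h, for example, changed sign in 4 of 22 alternatives. Scaling by library size only left 1 member called lower in enzalutamide against DHT at 24 h. With the 4 vehicle columns as separate samples, 1 member (ALDH18A1) was called lower with enzalutamide at 4 h. Against vehicle of the same header prefix, an alternative chosen after seeing the data, 0 members were called lower with enzalutamide at 24 h and 3 higher at 24 h than at 4 h. With a minimum of 0.5 RPKM in 3 libraries, 2 members were called higher with enzalutamide in siGATA2 cells. Leaving out 1 library gave 0 to 1 member called lower with enzalutamide at 24 h and 3 to 6 called higher at 24 h than at 4 h. The causes were not tested.

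With the replicate block, the interaction of PSPH was -0.25 with an adjusted p of 0.0574 (limma), and genes called with enzalutamide in siGATA2 cells went from 45 higher and 39 lower to 14 and 15; no other member call changed. Crossing the numbers of enzalutamide 4 h in the block, also chosen after seeing the data, gave 1308 genes higher and 1235 lower with enzalutamide at 4 h, against 1080 and 1039 without a block.

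Counts over all genes moved further than those of the members. Against vehicle of the same header prefix, 346 genes were higher and 435 lower with enzalutamide at 4 h, 1336 and 1731 at 24 h (2549 and 2645 in the fit of all libraries), 182 and 592 at 24 h against 4 h (1826 and 2003), and 261 and 455 for enzalutamide against DHT at 4 h (1133 and 1320). Fitting only the groups compared gave 401 and 380 for enzalutamide at 4 h, 668 higher for enzalutamide against DHT at 4 h, and 17 and 7 in siGATA2 cells. DHT at 4 h lowered 328 genes, 549 without the filter and 504 with 4 vehicle columns. Without 1 library, enzalutamide at 4 h gave 486 to 1697 genes higher. The largest shift of the median of all genes by a scaling was 0.0737 (log2). Fitting only the groups compared gives no interaction, which needs all 4 groups. The 2 libraries a condition and the 22 to 75 counts of ALDH1L2 limit the ligand values.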
